A study of Mus musculus with 2 samples.

Results

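Liver sinusoidal endothelial cells line the capillaries that carry blood from the portal tracts to the central veins, and those near the central vein form the central zone. In the healthy mouse liver library, 265 central-zone sinusoidal endothelial cells were chosen by their counts of marker genes, which is 8.67% [7.70, 9.73] of the 3055 sinusoidal cells, 4.75% of the 5580 cells past the quality limits, and a small part of the 14757 cells of both libraries. A cell was taken as sinusoidal when it held at least 1000 UMIs (unique molecular identifiers, each standing for 1 captured RNA molecule) with at most 30% of them mitochondrial, at least 5 UMIs of Clec4g, Stab2, Oit3 and Fcgr2b together and more than 3 times as many as of the epithelial and mesothelial genes Epcam, Krt7, Krt19 and Msln, and 0 UMIs of Vwf. It was taken as central-zone when it also held at least 3 UMIs of Wnt2, Kit and Thbd together and none of Efnb2, Dll4 or Ltbp4, which mark the portal side. The remaining 2790 sinusoidal cells served as the comparison. Square brackets hold 95% intervals, which cover counting error only. No position in the tissue was measured, so the zone is a label given by these genes.

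Blood leaving the sinusoids near the central vein meets hepatocytes whose genes are set by Wnt signalling, and the endothelium of that region is known as the source of the ligands. Wnt2 and Wnt9b are such ligands, and Rspo3 encodes a secreted R-spondin that raises the response to Wnt by keeping its receptors on the cell surface. Sinusoidal endothelium is also known for fenestrae and for scavenger receptors that clear blood-borne material, while portal sinusoids carry more of the Notch and ephrin genes of arteries.

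Cells were isolated from Col1a2CreER:Rosa26tdTomato mice, in which a Cre recombinase driven by the Col1a2 promoter can switch on a red reporter once tamoxifen is given, either uninjured or injured with carbon tetrachloride (CCl4), a toxin that hepatocytes convert to a damaging product. Both groups carried the same alleles, and each gave 1 library. The mice were on a C57BL/6 background and injury was chronic, with repeated injections. Across the whole study both sexes were used. Among sinusoidal cells of the healthy library none held an Xist UMI, and 185 of the 265 central-zone cells held a Y-linked UMI. The number of mice behind a library was not given in the sources used here, and whether the mice of either library received tamoxifen is not stated for this experiment. Pronase and collagenase were used to free the cells, which were spun on a Nycodenz gradient and depleted of CD45-positive immune cells with magnetic beads. Droplet capture with priming at the 3′ end (10x Genomics) followed. The healthy library held 6297 cells and 51122846 UMIs, and the CCl4 library 8460 cells and 97611831 UMIs. With 1 library per group, no value below has a replicate and no test was made.

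The genes of the rule are given as a description, since they chose the cells. Wnt2 (ENSMUSG00000010797) was counted at 1026 CPM (counts per 1000000 UMIs of the group) in the central-zone cells and at 365 CPM in the other sinusoidal cells, Kit, a receptor tyrosine kinase, at 620.3 and 236 CPM, and Thbd (thrombomodulin, an anticoagulant receptor) at 219 and 94.3 CPM. Wnt2 was present in 253 of the 265 cells, Kit in 249 and Thbd in 140. All 3 genes were present in 128 cells, Wnt2 with Kit only in 111 cells, and 12 cells qualified without any Wnt2 UMI. A cell held a median of 9 UMIs of the 3 genes (3 to 41) and of 44 UMIs of the 4 sinusoidal genes (6 to 116). The 27 cells exactly at the limit of 3 UMIs were shallow, with a median of 3008 UMIs, and had 106 CPM of Rspo3 and 148 CPM of Cdh13. Just outside it, 41 cells with 2 such UMIs and no portal UMI had 32.9 and 208 CPM of the same genes and a median depth of 1880 UMIs. Another 290 cells failed by a single portal UMI, at 167 CPM of Rspo3 and 248 CPM of Cdh13. The edge of the group is therefore gradual in these genes.

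The sinusoidal label was checked against markers that the rule did not use. All 9 further sinusoidal markers, among them Stab1, Mrc1, Gpr182, Dnase1l3, F8 and Gata4, were detected, with a summed level of 12627 CPM in the central-zone cells, 12580 CPM in the other sinusoidal cells and 1970 CPM in 117 Vwf-positive endothelial cells of larger vessels. No marker of that list differed by 2-fold between the central-zone and the other sinusoidal cells. Pecam1 and Cdh5, which all endothelium carries, were at 607 and 872 CPM against 611 and 861 CPM. Depth was alike in both groups, with a median of 5682 UMIs (1146 to 18836) and 2564 genes per central-zone cell and 6097 UMIs per other cell.

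Markers of other cells were few. The 12 hepatocyte markers summed to 1898 CPM in the central-zone cells and 2281 CPM in the others, with none at 0. Among the others, 130 cells with under 3 UMIs of Wnt2, Kit and Thbd and no portal UMI held 2.76% hepatocyte-marker UMIs. The rest held 0.154% (cells with at least 3 such UMIs) and 0.203% (cells with fewer), beside 0.190% in the central-zone cells. The 4 cholangiocyte markers outside the rule summed to 587 and 692 CPM. The macrophage list stood at 109 and 147 CPM with Adgre1, Marco and Timd4 at 0 in the central-zone cells. Of its 5 genes with enough counts to compare, 3 were 2-fold or more lower, beside 1.23% of all genes compared. C1qb went the other way, with 111 UMIs in 51 central-zone cells. Without its highest cell it was at 1.76 times [1.41, 2.17] the level of the other sinusoidal cells. All 6 T and NK and all 4 B cell markers were at 0 in the central-zone cells. The mesenchymal list stood at 181 and 139 CPM with Col1a2 and Pdgfrb among the 5 markers at 0. A single central-zone cell held most of the cholangiocyte signal, with 450 of the 755 Spp1 UMIs and 224 of the 416 Clu UMIs. Without the highest cell, Spp1 was at 0.355 times [0.316, 0.398] and Clu at 0.327 times [0.282, 0.377] the level of the other sinusoidal cells, instead of 0.867 and 0.699 times, so no account of these genes is drawn from the sums.

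Across all genes the central-zone cells stood close to the other sinusoidal cells. Of 8943 genes compared (at least 10 CPM in the higher group and 30 UMIs in both groups together, without the genes of the rule), 85 (0.95%) were 2-fold or more higher and 110 (1.23%) 2-fold or more lower, and the median log2 ratio was 0.01. Against the 445 portal-marked cells (at least 3 UMIs of Efnb2, Dll4 and Ltbp4 and none of Wnt2, Kit and Thbd), which form the opposite end, 230 of 8909 genes (2.58%) were higher and 204 (2.29%) lower. Against the Vwf-positive cells of larger vessels, 997 of 7992 genes (12.5%) were higher and 461 (5.77%) lower. The vessel cells held 663480 UMIs in all, against 2513909 in the portal-marked cells, so their ratios were less precise.

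The highest ratios were those of Selp and Rspo3, and Wnt9b was also among the leading genes. Rspo3 (ENSMUSG00000019880) had 735 UMIs in the 265 central-zone cells, or 499 CPM [463, 536], and 557 UMIs in the 2790 other cells, or 32.7 CPM, a ratio of 15.2 [13.6, 17.0]. Wnt9b (ENSMUSG00000018486) was at 56.3 CPM [44.9, 69.8] against 9.46 CPM, a ratio of 5.95 [4.51, 7.81]. Selp (ENSMUSG00000026580), P-selectin, which captures leukocytes and platelets on activated endothelium, was at 44.8 CPM against 2.88 CPM, the highest ratio at 15.6 [10.6, 23.0]. In the 183 central-zone cells without any Rspo3 UMI, the ratios against the other sinusoidal cells were smaller, at 2.53 for Selp, 2.64 for Wnt9b, 3.30 for Lhx6 and 2.68 for Cdh13. The comparison group still held its 116 cells with Rspo3, so the 2 sides were not chosen alike. The Selp value rests on 7 UMIs in the 183 cells. Rspo3, Wnt9b and Selp were nearly absent from portal-marked cells, with 0.796 CPM of Rspo3 from 2 UMIs, 1.19 CPM of Wnt9b from 3 UMIs and no Selp UMI.

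The same direction was seen for a LIM homeobox transcription factor and for T-cadherin. Lhx6 (ENSMUSG00000026890) was at 94.3 CPM against 14.2 CPM, a ratio of 6.66 [5.37, 8.24], and Cdh13 (ENSMUSG00000031841), a cadherin without an intracellular part, at 312 CPM against 73.6 CPM, a ratio of 4.23 [3.79, 4.71]. Cdh13 was the most widely detected of them, with a UMI in 178 of 265 cells, against 86 cells for Lhx6, 82 for Rspo3, 50 for Wnt9b and 32 for Selp. The other genes among the 15 with the highest ratios were Plppr5 (4.28), Lmcd1 (3.96), Sema3d (3.71), a secreted semaphorin, Ramp3 (3.69), which alters the ligand choice of the calcitonin-like receptor, Tgfbi (3.52), a matrix adhesion protein, Ltc4s (3.38), the leukotriene C4 synthase, Dkk3 (3.21), Ctnnal1 (3.14), Ackr3 (2.94), an atypical receptor for Cxcl12, and Lfng (2.89), a glycosyltransferase that modifies Notch receptors. None of these ratios came from a single cell. The highest cell held at most 16.7% of a gene's UMIs in this set, for Selp, whose ratio was 13.0 [8.71, 19.6] without it.

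**Figure D1:**
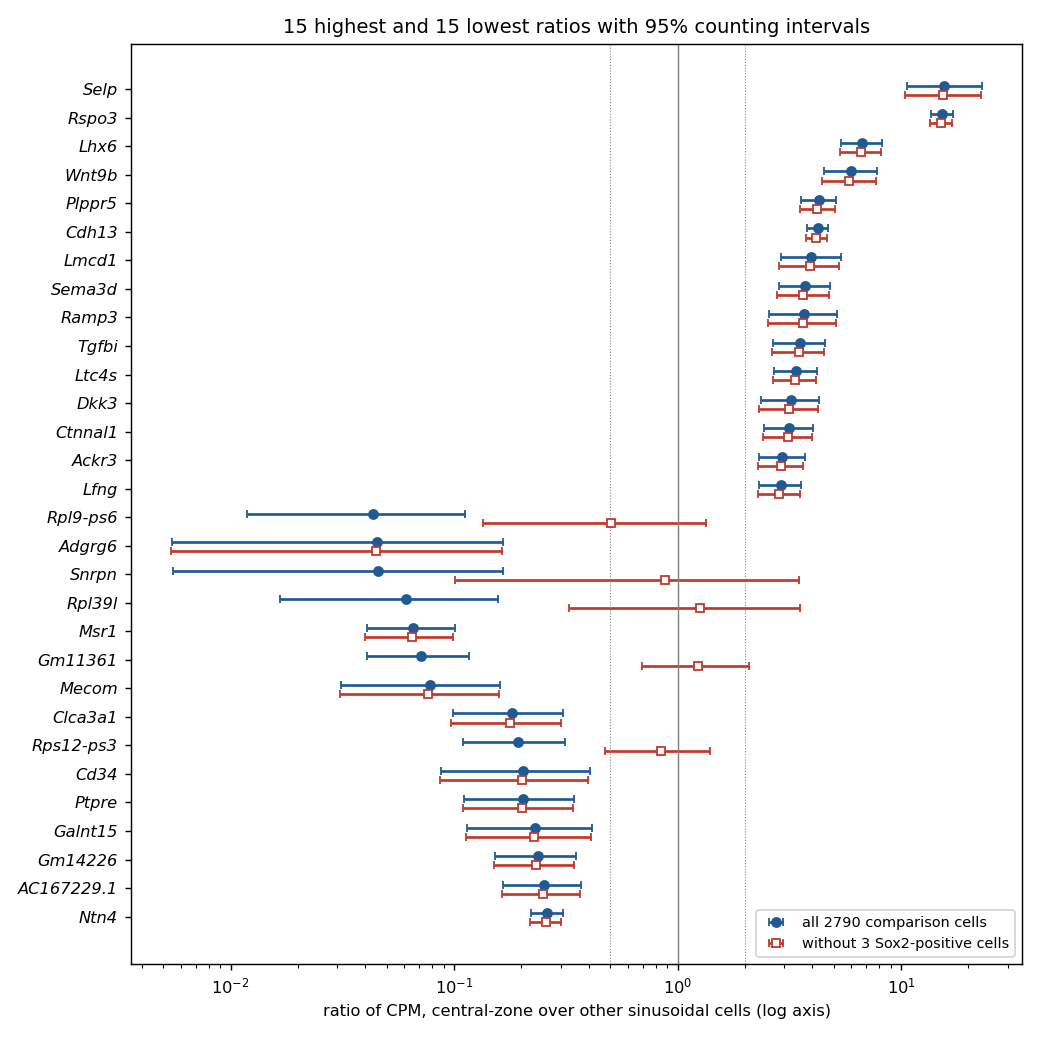
The 15 genes with the highest and the 15 with the lowest ratio of CPM between the 265 central-zone cells and the other sinusoidal cells of the healthy library, on a log axis with 95% counting intervals and dotted lines at 2-fold, with filled points for all 2790 comparison cells and open squares without 3 Sox2-positive cells. Selp and Rspo3 lie farthest to the right at 15.6 and 15.2, and 5 of the lowest genes move to 0.506 or above when the 3 cells are left out.

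All 7 genes of the central-side list were 2-fold or more higher (median log2 ratio 2.08), and of the 7 compared portal-side genes 4 were 2-fold or more lower and none higher (median log2 ratio -1.25). Over all genes compared, 0.95% were 2-fold or more higher and 1.23% lower. Both lists were drawn up with earlier results of these cells known, so their counts and medians are a description. Msr1, a scavenger receptor that takes up modified lipoproteins, was at 14.3 CPM [8.82, 21.8] in the central-zone cells against 216 CPM, a ratio of 0.0659 [0.0407, 0.101], and a UMI of it was found in 17 of 265 cells. Ntn4, a netrin of the basement membrane, was at 105 CPM [88.7, 122] against 400.4 CPM, a ratio of 0.261 [0.221, 0.306]. Adgrg6, an adhesion receptor coupled to G proteins, was at 1.36 CPM from 2 UMIs against 29.9 CPM, a ratio of 0.0454 [0.00548, 0.165], and the transcription factor Mecom at 4.75 against 61.0 CPM, a ratio of 0.0779. Clca3a1 (0.181), Cd34 (0.204), the phosphatase Ptpre (0.204), Galnt15 (0.231), Gm14226 (0.236) and AC167229.1 (0.254) were also among the 15 lowest.

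The remaining 5 of the lowest genes, Rpl9-ps6, Snrpn, Rpl39l, Gm11361 and Rps12-ps3, rested on 3 cells of the comparison group. These cells held 56431 to 95481 UMIs each, 5 to 8 UMIs of the 4 sinusoidal genes, and 55 to 92 UMIs of Sox2, a gene of neural and stem cells. They gave 77.5% to 95.2% of the comparison group's UMIs of the 5 genes, and Cldn5 and Lyve1 were at 0 in them. Without them the ratios were 0.506 for Rpl9-ps6, 0.876 for Snrpn, 1.27 for Rpl39l, 1.24 for Gm11361 and 0.844 for Rps12-ps3. The next lowest genes in their place were Ackr1 (0.264), the protease gene Htra1 (0.269), the chemokine Cxcl9 (0.279), Hmcn1 (0.332) and the Notch feedback gene Nrarp (0.350). Rpl9-ps6 and Rps12-ps3 are pseudogenes that can share reads with their parent genes, which makes their counts uncertain. Without the 3 cells, 81 genes were 2-fold or more higher and 102 lower.

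When all cells with at least 3 UMIs of the 6 zone genes were ordered by the share of Wnt2, Kit and Thbd among these UMIs, genes followed different courses. This order was set after the data were seen, its 6 steps held 445, 615, 579, 469, 437 and 265 cells, the first being the portal-marked and the last the central-zone cells, and it uses the genes of the rule, so it is a description. Rspo3 stood at 0.796, 1.63, 2.43, 20.6, 161 and 499 CPM from the portal to the central end. Its level was low over the first 3 steps and climbed steeply in the last 2. Cdh13 rose more evenly, through 7.16, 12.1, 44.1, 107, 226 and 312 CPM. Wnt9b, Selp and Lhx6 followed the late course of Rspo3, with 38.7, 13.3 and 54.7 CPM in the step next to the central-zone cells.

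More abundant genes followed either course. Ptgs1 (cyclooxygenase-1, which makes prostaglandin precursors) went from 163 CPM in portal-marked cells to 682 CPM in the central-zone cells, and Fabp4, a fatty acid carrier, from 1017 CPM through a low of 905 CPM at the third step to 2515 CPM, with its rise in the last 2 steps. Clec1b, a lectin receptor for podoplanin, rose from 317 to 536 CPM, and Lgals1 from 98.3 to 748 CPM. In the other direction Ntn4 fell through 717, 584, 361, 210.1, 139 and 105 CPM, Msr1 from 475 to 14.3 CPM and Adam23 from 1148 to 515 CPM. Lyve1, the hyaluronan receptor, had neither course. It was highest in the middle, at 667 and 664 CPM, and low at both ends, with 366 CPM in portal-marked and 347 CPM [317, 378] in central-zone cells, so its ratio against all other sinusoidal cells was 0.661 [0.603, 0.723] while the ends were alike.

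**Figure D2:**
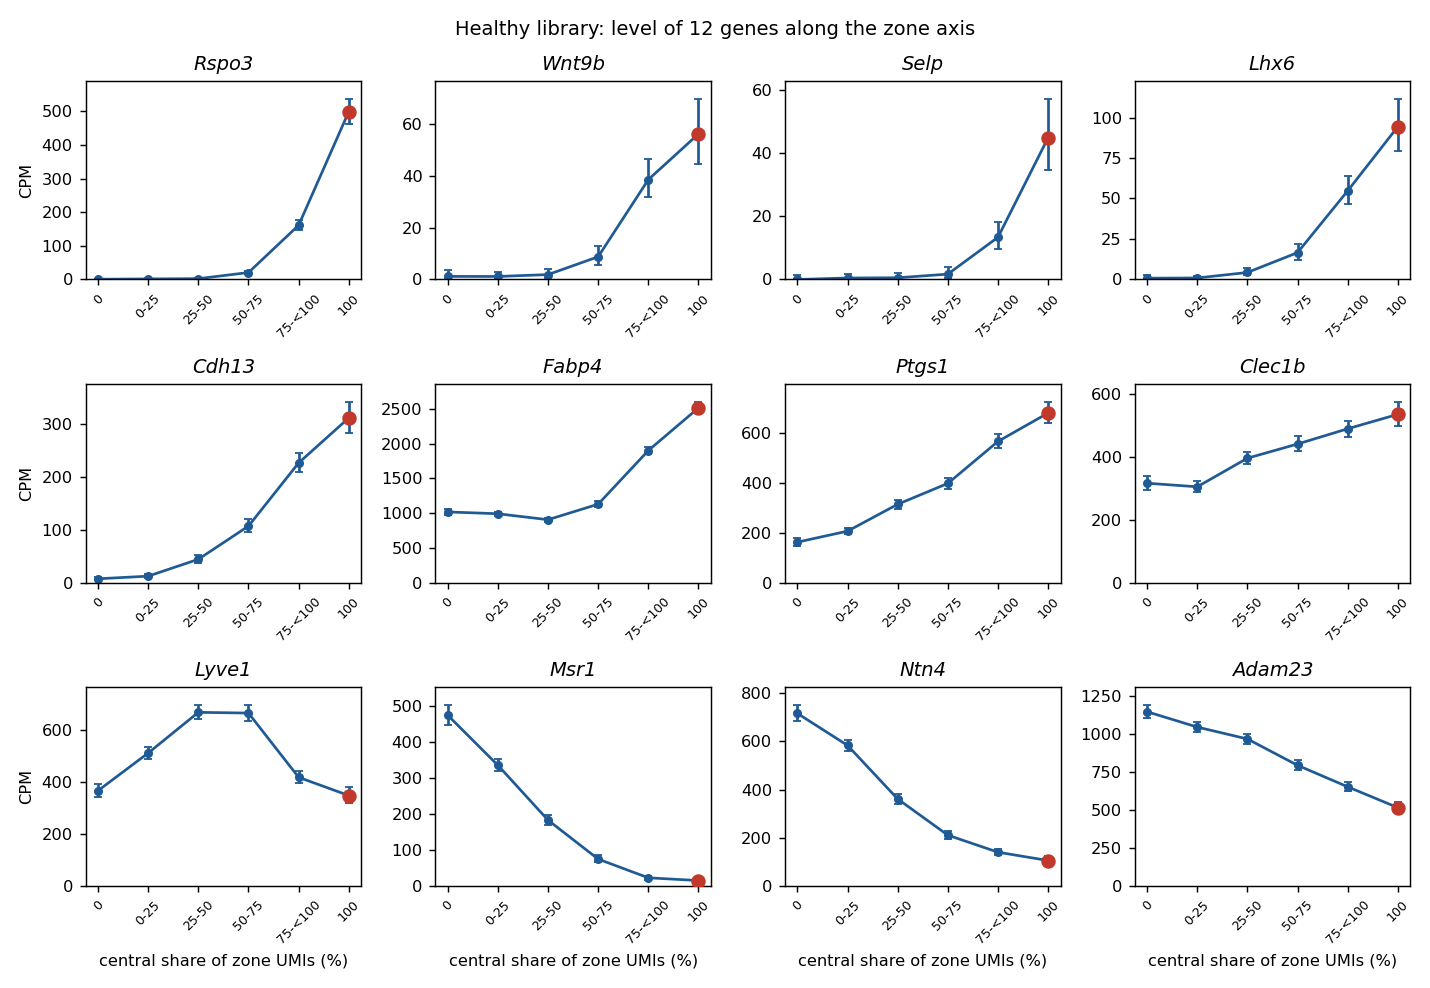
CPM of 12 genes in the healthy library along 6 steps of the share (in percent) of Wnt2, Kit and Thbd UMIs among the UMIs of the 6 zone genes, with 95% Poisson intervals, where the red point is the 265 central-zone cells. Rspo3, Wnt9b, Selp and Lhx6 climb mostly in the last steps, Lyve1 peaks in the middle at 667 CPM, and Msr1, Ntn4 and Adam23 fall toward the central end.

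RNA of hepatocytes was also followed along this order. Glul, the glutamine synthetase that marks hepatocytes around the central vein and is also used by other cells, was lower in central-zone endothelial cells, at 156 CPM against 281 CPM in the other sinusoidal cells and 378 CPM in portal-marked cells. The other 9 pericentral hepatocyte genes summed to 115 CPM at both ends of the order, and the 12 periportal genes to 238 CPM at the portal and 250.4 CPM at the central end. Against all other sinusoidal cells, 5 pericentral genes, Glul among them, could be compared, with a median log2 ratio of -0.85. Of these, 1 was 2-fold or more lower, beside 1.23% of all genes compared. That comparison group holds the 130 cells with 2.76% hepatocyte-marker UMIs.

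Within the Wnt and R-spondin list, 3 of 10 members outside the rule had enough counts to be compared, and Rspo3 and Wnt9b were 2-fold or more higher. Beside the counts for this list and those that follow, 0.95% of all genes compared were 2-fold or more higher and 1.23% lower. Wnt4 was lower, with 7 UMIs in central-zone cells (4.75 against 10.3 CPM, a ratio of 0.459 [0.182, 0.967]), and cholangiocytes of the same library carried it at 249.6 CPM. Rspo1 had 4 UMIs, Wnt5b 1 UMI, and Wnt2b, Wnt5a, Wnt11, Rspo2 and Rspo4 were at 0. Of the receptors and downstream genes, the receptor genes Fzd4 (207 against 188 CPM, a ratio of 1.1 [0.976, 1.24]) and Lrp6 (166 against 164 CPM) were alike in both groups, while Lrp5 (1.31 [1.14, 1.51]), the ligand carrier Wls (1.17 [1.02, 1.32]) and the feedback gene Nkd1 (1.33 [1.09, 1.61]) were slightly higher. Dkk3 was the only one of 10 compared receptor, inhibitor and target genes past 2-fold. The Wnt target Axin2 had 3 UMIs and Lgr5, Znrf3, Rnf43, Notum and Lef1 had 0, so differences in them were not detectable at this depth.

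Notch genes were mostly level or lower. Notch1 was at 371 CPM against 372 CPM, a ratio of 0.998. The Notch target Hes1 was at 180 CPM against 319 CPM, a ratio of 0.563 [0.496, 0.637], and Nrarp was the only one of 9 compared genes past 2-fold lower, while Lfng was the only one past 2-fold higher. The ligand Dll4 belongs to the rule and was 0 by choice, and the ligand Dll1 was at 34.6 CPM against 24.0 CPM, a ratio of 1.44 [1.06, 1.94].

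Scavenger receptors differed gene by gene. Of 14 compared, none was 2-fold higher, and Msr1, Cd36 (168 against 400.4 CPM, 0.419 [0.367, 0.475]), a fatty acid and thrombospondin receptor, and the lectin Cd209b (6 UMIs, 0.255 [0.0927, 0.562]) were 2-fold or more lower. Stab1 (1.29 [1.23, 1.35]), Clec1b (1.40 [1.30, 1.51]) and the antibody recycling receptor Fcgrt (1.26 [1.20, 1.33]) were modestly higher, and Mrc1, the mannose receptor, was at 1.08 [1.04, 1.13]. The median log2 ratio over the 14 genes was 0.09, beside 0.01 over all genes compared, of which 0.95% were 2-fold or more higher and 1.23% lower.

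Vasoactive genes held members at both ends. Ramp3 was 3.69-fold higher [2.57, 5.19] while its partner receptor Calcrl was at 1.09 [0.998, 1.19] and Ramp2 at 1.17. Edn1, encoding the constrictor endothelin-1, was at 24.4 CPM against 4.64 CPM, but 20 of its 36 UMIs came from 1 cell and its ratio was 2.35 [1.28, 4.06] without that cell instead of 5.26. Gucy1b1, a subunit of the nitric oxide receptor (2 UMIs, 0.106 [0.0128, 0.387]), the endothelin receptor Ednrb (0.443 [0.265, 0.700]) and adrenomedullin, Adm (0.473 [0.317, 0.681]), were lower, while Nos3, the endothelial nitric oxide synthase, was at 78.1 CPM against 76.1 CPM. Of the VEGF and angiopoietin genes, Kdr, Flt1, Tek and Tie1 lay between 1.01 and 1.1 times the other cells, and the ligands Vegfc (4 UMIs, 0.169 [0.0456, 0.437]) and Angpt2 (9 UMIs, 0.326 [0.148, 0.626]) were lower.

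Chemokines of the interferon response were lower and adhesion genes were mixed. Cxcl9 was at 24.4 CPM against 86.2 CPM (0.283 [0.198, 0.394]) and Cxcl10 at 111 CPM against 288 CPM (0.384 [0.326, 0.449]), while Cxcl16, Icam1 and Vcam1 lay between 0.907 and 1.07. Icam2 was at 1.35 [1.24, 1.47]. In the BMP and angiocrine list 13 genes were compared and 2 passed 2-fold, both lower (1.23% of all genes compared were lower and 0.95% higher), Hgf (0.497 [0.340, 0.704]), a growth factor for hepatocytes, and Inhbb (0.471 [0.296, 0.714]). Bmp2 (1.03 [0.982, 1.08]) and Bmp6 (1.0 [0.875, 1.14]), the endothelial ligands that set hepcidin in hepatocytes, were alike in both groups. Of the basement membrane and fenestra genes, Plvap, the protein of diaphragms, was at 257 CPM against 127 CPM (2.03 [1.81, 2.26]) and the laminin gene Lama4 at 0.408 [0.330, 0.498].

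The remaining lists held few genes past 2-fold, beside 0.95% higher and 1.23% lower over all genes compared. Among 17 endothelial transcription factors only Lhx6 was past 2-fold, and Gata4 (0.966 [0.856, 1.09]) and Maf (1.01 [0.977, 1.05]), factors of sinusoidal identity, were alike. Of 7 flow-responsive genes, Klf2 was at 0.859 [0.825, 0.895] and none passed 2-fold. Among 16 immediate early and heat shock genes, which tissue digestion is known to raise, none passed 2-fold, with Fos at 0.724 and Dusp1 at 0.671. None of the 4 compared coagulation genes and none of the 4 compared cell cycle genes was past 2-fold, and Mki67 and Top2a had 1 UMI each. Of 8 compared hypoxia-responsive genes only Adm passed 2-fold, and Cd74, the only class II gene with enough counts, was lower at 6.79 CPM against 22.7 CPM.

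**Figure D3:**
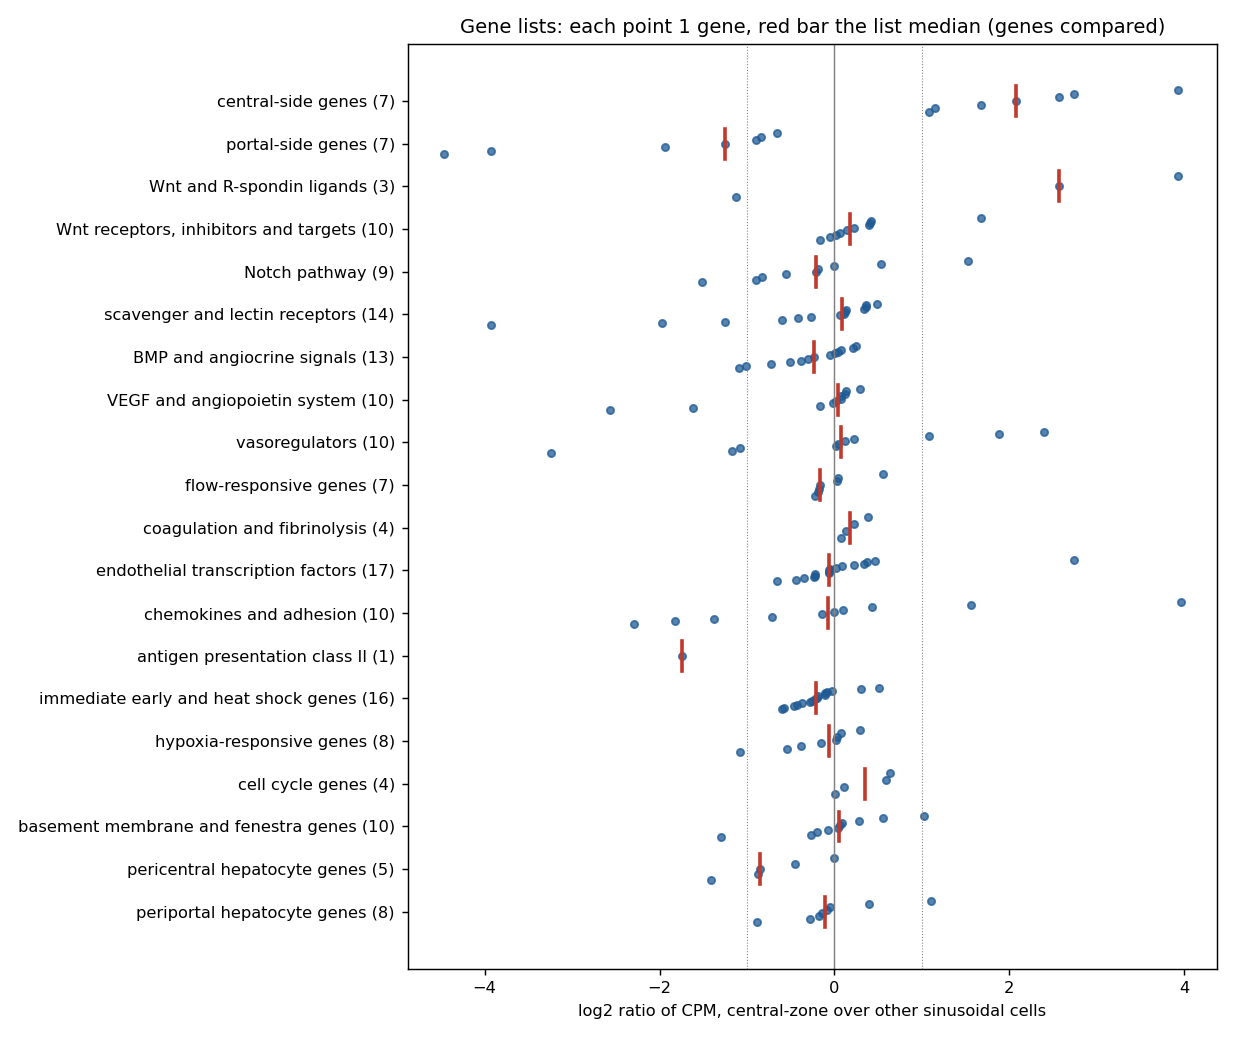
Log2 ratio of CPM between central-zone and other sinusoidal cells of the healthy library for each compared gene of 20 lists (points), with the list median as a red bar, the number of genes compared in parentheses and dotted lines at 2-fold. Medians lie near 0 except for the central-side, portal-side, Wnt and R-spondin, class II (1 gene) and pericentral hepatocyte lists, and single genes such as Lhx6, Ramp3, Selp and Msr1 stand far from their lists.

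The central-zone cells were not uniform in Rspo3. Of the 265 cells, 183 held no Rspo3 UMI, 31 held 1 or 2, and 51 held 3 or more, and these 51 cells (19.2%) gave 93.6% of all Rspo3 UMIs of the group, with up to 47 in a cell and 22 cells at 10 or more. Depth differed little, with medians of 5241, 5924 and 6252 UMIs. After each cell was thinned to 2000 UMIs, 23.9% [18.8, 29.7] of the 253 central-zone cells deep enough were expected to hold Rspo3, against 2.61% [2.02, 3.32] of the other sinusoidal cells and 0.29% of cholangiocytes. Without thinning the shares were 30.9%, 4.16% and 1.39%, and the median depths were 5682, 6097 and 12117 UMIs. The 118 Rspo3 UMIs of cholangiocytes lay in 21 of 1507 cells, so their share is not a measure of free RNA alone, and their source was not tested. Rspo3 was found in 0 of 43 hepatocytes, which allows a share of up to 6.98%.

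The cells with 3 or more Rspo3 UMIs differed from those with none in many further genes. This split was made after the data were seen and uses Rspo3 itself, so the values are a description. The 7 cholangiocyte markers together, genes of the rule included, moved with it, at 1794 CPM against 267 CPM. Of their 598 UMIs in the 51 cells, 1 cell held 518, and the median was 1 UMI per cell in both groups. Their part in the result was not tested. Wnt9b was at 150.0 CPM [111, 198] against 24.9 CPM [16.0, 37.1], Selp at 138 CPM against 7.27 CPM, Lhx6 at 192 CPM against 46.8 CPM, and Fabp4 at 5082 CPM [4843, 5330] against 1458 CPM [1383, 1536]. Cells with 1 or 2 Rspo3 UMIs lay between in Fabp4, at 3420 CPM. Their 73.1 CPM of Selp came from 13 UMIs in 3 cells, 11 of them in 1 cell. Cyp1a1, an enzyme of the aryl hydrocarbon response, was at 297 CPM against 6.24 CPM, and in the 51 cells 21 held it, the highest with 22 of the 99 UMIs. Lyve1 went the other way, from 494 CPM in cells without Rspo3 to 180 CPM in cells with 1 or 2 UMIs and 12 CPM in those with 3 or more, where it was found in 2 cells. Cd36 (33.0 against 218 CPM), Adam23 (171 against 657 CPM) and Flt4, the receptor of VEGF-C (354 against 773 CPM), were likewise lower, and the sinusoidal genes Stab2 (891 against 1532 CPM) and Clec4g (3258 against 4761 CPM) were lower but abundant. Kit (573 against 636 CPM) and Gata4 (222 against 196 CPM) were near level. The other central genes of the rule, Wnt2 (1428 against 856 CPM) and Thbd (381 against 150 CPM), were higher. Maf (1383 against 2256 CPM) and Kdr (1767 against 2594 CPM) were lower.

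**Figure D4:**
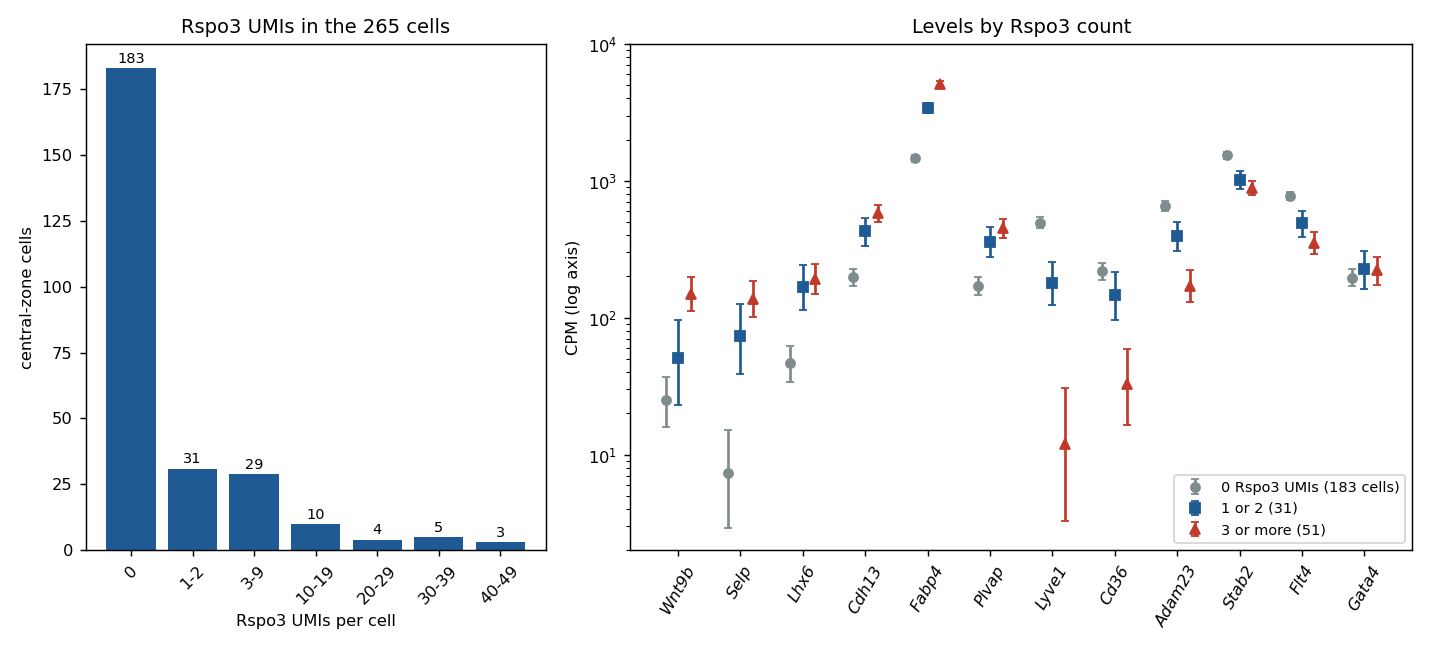
Left, the number of central-zone cells by Rspo3 UMIs per cell, with 183 of 265 cells at 0. Right, CPM of 12 genes on a log axis in cells with 0 (183 cells), 1 or 2 (31) and 3 or more (51) Rspo3 UMIs, with 95% Poisson intervals, where Wnt9b, Selp and Fabp4 are highest and Lyve1, Cd36 and Adam23 lowest in the last group.

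Endothelium of larger vessels also held cells with and without Rspo3. The Vwf-positive cells of this group had under 5 sinusoidal UMIs, so the rule leaves them out whatever their Vwf count. Of the 117 Vwf-positive cells, 39 held 3 or more Rspo3 UMIs and had 4032 CPM of Rspo3, 363 CPM of Wnt9b, 413 CPM of Selp, 207 CPM of Lhx6 and 7678 CPM of Fabp4. The other 78 had 2.24 CPM of Rspo3, 0 of Wnt9b, 62.8 CPM of Selp and 6.73 CPM of Lhx6, with 157 CPM of Dll4 against 9.18 CPM in the 39. Clec4g, at 248 CPM in the 39 cells and 3258 CPM in the 51 central-zone cells, differs by the gates, which use it. A further 10 cells met every condition of the central-zone rule except that they held a Vwf UMI, and these had 5249 CPM of Rspo3, 346 CPM of Wnt9b and no Lyve1 UMI. The Vwf condition of the rule thus left out cells with still more Rspo3.

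The same gates found fewer such cells in the CCl4 library, 38 of 710 sinusoidal cells or 5.35% [3.81, 7.27], with a median of 6591 UMIs. All sinusoidal cells of that library had a median of 7996 UMIs, against 6052 in the healthy one. The limits of the rule are counts of UMIs and so depend on depth, whose part in the share was not tested. Library, software version and injury cannot be told apart, and in these sums a change in the kinds of cells present and a change within cells cannot be told apart either. Wnt2 was at 274 CPM in the CCl4 cells against 1026 CPM in the healthy ones, Clec4g at 1186 against 4321 CPM and Fabp4 at 1297 against 2515 CPM, while Thbd stood at 545 against 219 CPM. Wnt2, Clec4g and Thbd are genes of the rule, which chose the cells in both libraries, so their values are a description. In the other sinusoidal cells they stood at 61.8, 751 and 174 CPM in the CCl4 library against 365, 4522 and 94.3 CPM in the healthy one. In the central-zone cells, Cdh13 (274 against 312 CPM, a ratio of 0.880 [0.679, 1.13]), Kdr (0.959 [0.878, 1.05]) and Lyve1 (0.951 [0.750, 1.19]) were near their healthy levels. The intervals for Wnt9b (1.51 [0.909, 2.42]) and Selp (0.744 [0.326, 1.5]) spanned 1. Rspo3 was at 111 CPM against 499 CPM, a ratio of 0.223 [0.149, 0.321], and was found in 5 of the 38 cells.

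Against the other sinusoidal cells of its own library, the CCl4 group kept the direction of several genes. Cdh13 was higher by 6.20 [4.76, 8.0], Wnt9b by 4.14 [2.55, 6.45], Selp by 3.33 [1.47, 6.67] and Ptgs1 by 2.40 [1.90, 3.01], and Msr1 was lower at 0.431 [0.258, 0.676]. Ntn4 was at 1.1 [0.716, 1.63] and Adam23 at 1.62 [1.35, 1.93], in place of 0.261 and 0.558 in the healthy library. Among cells with few mesenchymal markers (described next), Ntn4 was at 0.819 [0.528, 1.22], Adam23 at 1.07 [0.887, 1.28] and Msr1 at 0.247 [0.146, 0.392], and Lyve1 went from 0.804 [0.644, 0.992] to 0.472 [0.373, 0.589]. Rspo3 (0.513 [0.345, 0.735]), Dkk3 (0.189 [0.0228, 0.690]) and Tgfbi (0.0582 [0.0266, 0.111]) were lower in the CCl4 central-zone cells than in the other CCl4 sinusoidal cells. These other cells held 10533 CPM of the 12 mesenchymal markers against 700.2 CPM in the 38 cells, and 5250 mesenchymal cells of that library had 220 CPM of Rspo3, 97.1 CPM of Dkk3 and 420 CPM of Tgfbi. When only CCl4 sinusoidal cells under 1000 CPM of these markers were kept, which left 36 and 419 cells, Rspo3 was higher in the central-zone cells by 3.19 [2.06, 4.79], at 117 against 36.8 CPM. Wnt9b (5.30 [3.07, 8.86]) and Cdh13 (6.09 [4.55, 8.08]) kept their ratios in these cells, and those of Dkk3 (1.42 [0.159, 5.92]) and Tgfbi (1.0 [0.421, 2.05]) had intervals that spanned 1.

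**Figure D5:**
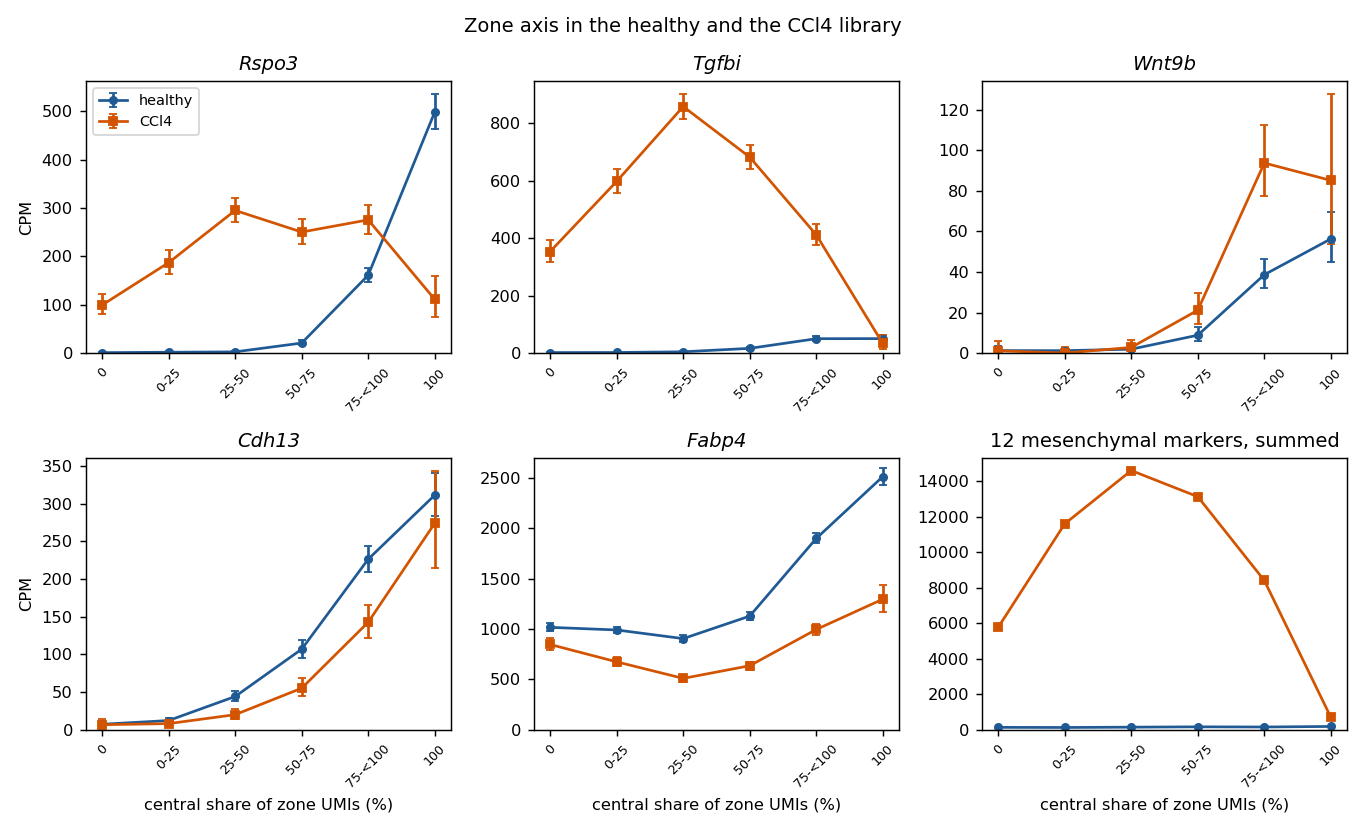
CPM of 5 genes along the 6 steps of the zone order in the healthy (circles) and the CCl4 library (squares), with 95% Poisson intervals, and the summed CPM of 12 mesenchymal markers in the same cells (bottom right). Wnt9b and Cdh13 rise toward the central end in both libraries, while Rspo3 of the CCl4 library is higher in the middle steps than at either end, and the mesenchymal markers fall from 14612 CPM at the third step to 700.2 CPM in the 38 cells.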

How the data were processed

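For each library the authors deposited 1 matrix of raw UMI counts (genes by called cells). Per the file headers, Cell Ranger 3.1.0 (31053 genes) wrote the healthy and 6.0.1 (32285 genes) the CCl4 matrix. The mouse build is not clear from the sources used here, so no coordinates are given. Each library is 1 sample, and replicate numbers do not exist. The cells, the gene lists and the rule for named genes were chosen with earlier results of these data known, and the central-side list holds genes seen before in them. Counts were summed over the cells of a group and scaled to CPM. Ratios carry exact conditional binomial, levels exact Poisson and shares Clopper-Pearson 95% intervals, and a count of 0 allows up to 3. Named genes were those of the rule, of the lists, and the 15 highest and 15 lowest ratios among genes with at least 25 CPM in the higher group and 30 UMIs in both groups together. Genes named beyond this, the zone order, the Rspo3 split and the hepatocyte, mesenchymal and Vwf-positive groups were chosen after values were seen. Cholangiocytes held at least 5 UMIs of Epcam, Krt7 and Krt19 and more than 3 times the sinusoidal UMIs. Hepatocytes (at least 10% hepatocyte-marker UMIs), mesenchymal cells (at least 20 UMIs of Dcn, Col1a1, Col1a2 and Col3a1) and Vwf-positive cells (Vwf with Pecam1 or Cdh5) had under 5 sinusoidal UMIs. Doublets were kept. Scrublet scores marked 6 of the 265 cells (2.26%) and 142 of the other 2790 (5.09%), at 0.8% per 1000 cells. The libraries shared 10 barcodes, none among the 265 cells. Ratios were checked on simulated counts. Software was python 3.11.15, scanpy 1.11.5, scipy 1.17.1, R 4.3.3 and edgeR 4.0.16 (TMM factors only).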

Additional observations from a re-analysis of the deposited data

Results flagged for a closer look

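In data outside the comparisons, 14 healthy cells held 5 or more UMIs of Rpl39l and Rpl9-ps6 together. All 14 held Sox2, their median was 31726 UMIs, 3 of them passed the sinusoidal gates into the comparison group, and none was a central-zone cell. In the CCl4 library 3 cells met the same limit, none with Sox2. What these cells are was not tested.

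For 3 genes the ratio of central-zone over other sinusoidal cells was above 2 in the healthy library and its whole interval below 1 in the CCl4 library. Lmcd1, with 1 UMI in the CCl4 central-zone cells, was also below 1 there, at 0.505 [0.0125, 2.93]. The CCl4 ratios were 0.513 for Rspo3, 0.189 for Dkk3 and 0.0582 for Tgfbi, and the difference between the libraries was not tested, since each is 1 sample. Among CCl4 cells under 1000 CPM of mesenchymal markers the ratios were 3.19, 1.42 and 1.0.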

How the results depend on the processing

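The ratios of 35 genes past 2-fold (the 15 highest, the 15 lowest and the central-side and portal-side lists) were recomputed under 14 alternatives, and those of other genes were not. Of 488 values, 467 stayed past 2-fold and 21 did not, and 84 moved by over 1.5 times. Selp and Lmcd1 had no UMI in portal-marked cells and so no ratio there. Apart from the cells without Rspo3, where 11 of 15 stayed, each of the 15 highest genes stayed past 2-fold. Apart from the pseudogenes and others that rest on the 3 Sox2-positive cells (Gm11361 1.19 at 5000 to 15000 UMIs, and without these cells Rpl39l 1.27 and Gm11361 1.24), losses were Fabp4, at 1.69 with any Vwf count, and, in the 183 cells without Rspo3, Rspo3 itself (0 by choice), Tgfbi 1.82, Ctnnal1 1.54, Lfng 1.99, Ptgs1 1.86 and Fabp4 1.28. That split kept all 2790 comparison cells, with or without Rspo3. It also gave 186 lower genes, a central-side median of 1.40 and a Wnt and R-spondin list median of -1.73. The count of genes higher and lower was 230 and 204 against portal-marked cells (list medians 5.44 and -2.07), 31 and 20 at 50 CPM or more, and 192 and 594 with no CPM limit. Cells with hepatocyte RNA below the median (135) gave 170 lower genes and a portal-side median of -1.84, and any Vwf count gave medians of 1.57 and -1.91, beside 2.08 and -1.25. The number of central-zone cells was 151 at 5000 to 15000 UMIs, and their share was 10.0% from 2 and 7.10% from 5 Wnt2, Kit and Thbd UMIs. Without thinning, cells with a UMI were 30.9% for Rspo3, 18.9% for Wnt9b, 67.2% for Cdh13, 40.0% for Ntn4 and 6.42% for Msr1, beside 23.9%, 8.62%, 42.6%, 18.1% and 2.70%. In CCl4 cells under 1000 CPM of mesenchymal markers, Rspo3, Dkk3 and Tgfbi turned to 3.19, 1.42 and 1.0. The cause of a change under any alternative was not tested. The alternatives without the 3 cells, without Rspo3, without the highest cell of a gene and with few mesenchymal markers were chosen after seeing the data. No cell of either group held Xist, so the alternative on such cells was not run. Y-linked UMIs were found in 185 of the 265 central-zone and 1851 of the 2790 other cells, and 1 of the 14 alternatives kept only these. No paired analysis was possible because each group is 1 library with no replicate number. With 265 cells, genes of a few UMIs have wide intervals.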
